A study of Mus musculus with 16 samples.

Results

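The 8 genes described here encode the liver's machinery for storing cholesterol as esters and for releasing it again, chiefly from the lysosome. They were taken by symbol from a table of normalized counts for 12618 genes, and all 8 were found there. The esterifying enzymes are Soat1 and Soat2, the ester hydrolases are Lipa and Nceh1, the lysosomal exporters are Npc1 and Npc2, and the transfer proteins are Stard3 and Osbp. Messenger RNA had been sequenced in mouse livers, with 8 libraries labelled CYP7A1 (Cyp7a1 CRISPR) and 8 labelled Ctrl (control CRISPR). Both groups were on a Western diet for 8 weeks. CRISPR cuts a chosen gene to disable it, here Cyp7a1, whose product catalyses the first step of the classical route from cholesterol to bile acids. The labels used here name neither the delivery of the editing nor the strain, sex and age of the mice.

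Cholesterol taken up in lipoproteins reaches the lysosome largely as esters. Lysosomal acid lipase, the product of Lipa, frees the sterol, the soluble protein NPC2 hands it to NPC1 in the lysosomal membrane, and NPC1 passes it on. From there transfer proteins at membrane contact sites, among them STARD3 and OSBP, move sterol between late endosomes, the Golgi and the endoplasmic reticulum. In the endoplasmic reticulum the acyltransferases SOAT1 and SOAT2 join cholesterol to a fatty acid for storage in droplets or secretion in lipoproteins. SOAT2 is the main form in mouse hepatocytes, whereas SOAT1 is widespread and abundant in macrophages. The neutral hydrolase NCEH1, studied mostly in mouse macrophages, reverses this step outside the lysosome.

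Depth was 19.6 to 27.4 M recovered reads per Cyp7a1-labelled library and 13.8 to 25.4 M per control library, counted from the steps between the deposited values. The transcript of the targeted gene had a lowest, median and highest value of 3069, 4892 and 5873 normalized counts in Cyp7a1-labelled livers, against 2148, 3281 and 5642 in controls. It was not lower in the livers labelled for the edit (limma adjusted p = 0.227), and a gene total cannot reveal edited bases, so that group is called Cyp7a1-labelled and every direction rests on the labels. All 8 hepatocyte markers looked up were in the table, with summed levels of 1573820 to 2278380 normalized counts in Cyp7a1-labelled livers and 1512830 to 2241970 in controls. Their median log2 fold change was 0.17, 7 of 8 were above 0, and Tat passed the test used below (0.84 ± 0.24, SE, limma adjusted p = 0.0466). Of the markers of other cell types, the cholangiocyte marker Krt23 (-2.15 ± 0.31, SE, limma adjusted p = 0.000655) and the carry-over marker Cela1 (-0.43 ± 0.12, SE, limma adjusted p = 0.0482) passed as lower. The cholangiocyte list as a whole did not follow Krt23, as 5 of its 6 markers in the table were above 0 and their median was 0.11. Cela1 was the only 1 of 8 listed carry-over markers in the table. The part of these marker differences in the results was not tested. In bulk liver, fewer cells of a type and less RNA per cell cannot be told apart. Whether every library came from its own mouse is not stated, and p-values therefore cover only the spread among these libraries.

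Of the 8 genes, Npc2 was higher and Stard3 was lower in Cyp7a1-labelled livers, and the other 6 did not pass the threshold. Calls are limma tests on log2(value + 1) with Benjamini-Hochberg adjustment over all 12617 genes tested, at an adjusted p of 0.05. By the same rule 6.12% of all genes were called, 3.07% as higher and 3.05% as lower. The same 2 of the 8 genes were called by edgeR, with 6.02% of all genes, and by DESeq2, with 8.88%. Without the adjustment, 4 of the 8 genes and 20.5% of all genes had p under 0.05. The median log2 fold change of the 8 genes was 0.074, with a range of -0.23 to 0.29, and that of all genes was 0.0034. In none of the 8 genes were the groups free of overlap, where 0.507% of all genes did not overlap and were higher and 0.531% did not overlap and were lower.

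**Figure D1:**
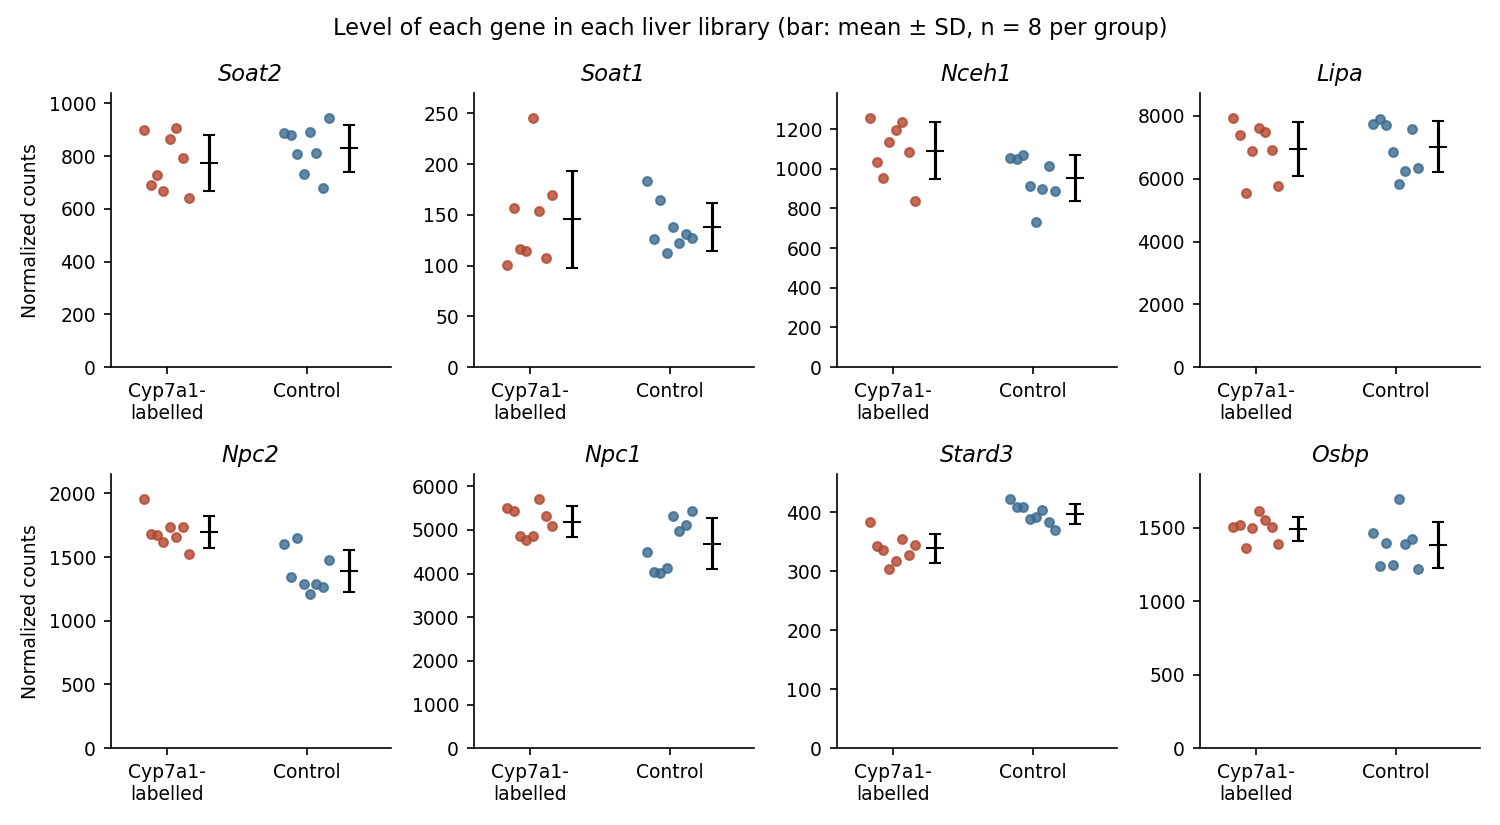
Normalized counts of the 8 genes (vertical axis, from 0) in each liver library, with Cyp7a1-labelled livers at the left of each panel and controls at the right. Points are libraries and the bars give mean ± SD (n = 8 per group). All 8 Cyp7a1-labelled livers lay above the control mean for Npc2 and below it for Stard3, while the groups overlapped widely for Soat1, Soat2 and Lipa.

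Npc2 (ENSMUSG00000021242, chromosome 12, 84754562 to 84773152 on mm10, minus strand) had a lowest, median and highest value of 1521, 1676 and 1952 normalized counts in Cyp7a1-labelled livers, against 1209, 1317 and 1648 in controls. In 6 of 8 Cyp7a1-labelled livers the value was above every control, and the overlap came from Cyp7a1 19 and Cyp7a1 36, with 1621 and 1521, and from Control 13 and Control 7, with 1648 and 1602. The log2 fold change was 0.29 ± 0.07 (SE), a rise of 22.5% with a 95% interval of 11.1% to 35.1% (limma adjusted p = 0.0151, two-sided exact permutation p = 0.0014). The gene kept its call when any 1 library was left out, with adjusted p values of up to 0.0340. When libraries were scaled to equal totals, the fold change was the same to 2 decimals, at 0.29, but it did not pass (adjusted p = 0.0788).

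Stard3 (ENSMUSG00000018167, chromosome 11, 98358368 to 98381112, plus strand) encodes a sterol transfer protein of the late endosome membrane. Its lowest, median and highest values were 303, 339 and 383 normalized counts in Cyp7a1-labelled livers, against 370, 397 and 422 in controls. Cyp7a1 2 was the 1 Cyp7a1-labelled liver within the control range, and the other 7 lay below every control. The log2 fold change was -0.23 ± 0.05 (SE), a difference of -14.8% with a 95% interval of -20.8% to -8.47% (limma adjusted p = 0.0107, two-sided exact permutation p = 0.000311). Stard3 passed under each alternative run, with adjusted p values between 0.00105 and 0.0478. It was also the steadiest of the 8 genes, with a within-group SD of 0.08 on the log2 scale, and 5.98% of all genes had a smaller one.

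The changes of Npc2 and Stard3 were both below the median size among called genes, that of Stard3 by more. Among 772 called genes the median size of the log2 fold change was 0.35, and 62.3% changed by more than Npc2 and 79.1% by more than Stard3. Since the 2 genes moved apart, their ratio within a liver, chosen after their values were seen and given with no test, separated the groups. The ratio of Npc2 to Stard3 per kilobase of exon had a lowest, median and highest value of 2.88, 3.30 and 3.57 in Cyp7a1-labelled livers, against 2.02, 2.16 and 2.63 in controls.

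**Figure D2:**
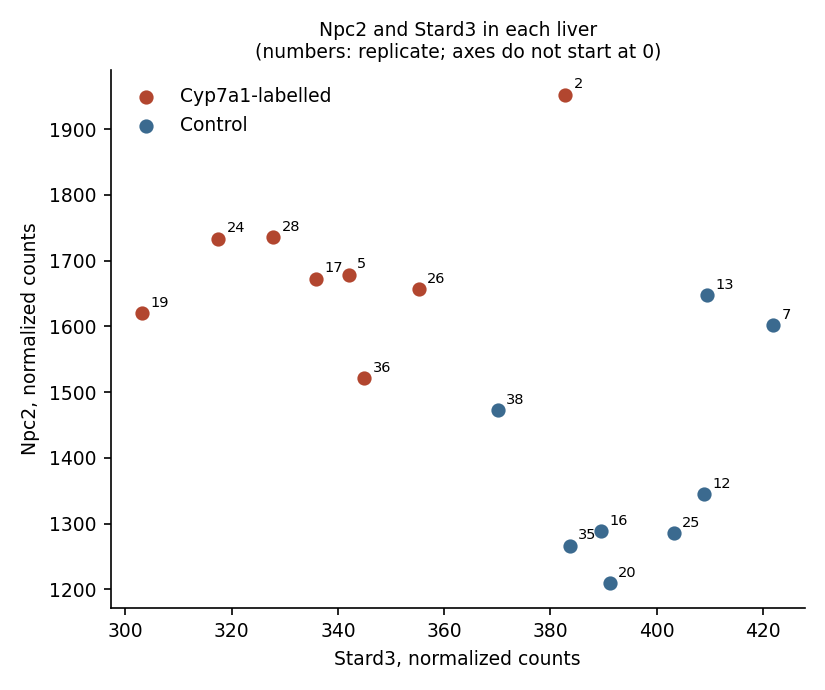
Npc2 (vertical axis) against Stard3 (horizontal axis), both in normalized counts, for each of the 16 livers, numbered by replicate. Cyp7a1-labelled livers lie to the upper left with 303 to 383 counts of Stard3 and 1521 to 1952 of Npc2, and controls to the lower right with 370 to 422 and 1209 to 1648.

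The promoters of these 2 genes are shown because they passed in opposite directions. Each window runs from 250 bases before to 50 bases after the RefSeq transcription start on GRCm38.p6, written 5′ to 3′ on the strand of the gene. Capitals mark the GC box letters GGGCGG, the CCAAT box letters CCAAT and the E-box letters CACGTG, on either strand. Npc2 lies at chr12:84773063-84773362 on the minus strand and Stard3 at chr11:98358118-98358417 on the plus strand.
Npc2: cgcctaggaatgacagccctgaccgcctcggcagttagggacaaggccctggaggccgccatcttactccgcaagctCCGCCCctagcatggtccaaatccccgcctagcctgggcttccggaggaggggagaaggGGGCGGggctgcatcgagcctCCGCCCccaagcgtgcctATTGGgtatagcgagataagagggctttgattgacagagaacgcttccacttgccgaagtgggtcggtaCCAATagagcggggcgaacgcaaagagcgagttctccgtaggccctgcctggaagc
Stard3: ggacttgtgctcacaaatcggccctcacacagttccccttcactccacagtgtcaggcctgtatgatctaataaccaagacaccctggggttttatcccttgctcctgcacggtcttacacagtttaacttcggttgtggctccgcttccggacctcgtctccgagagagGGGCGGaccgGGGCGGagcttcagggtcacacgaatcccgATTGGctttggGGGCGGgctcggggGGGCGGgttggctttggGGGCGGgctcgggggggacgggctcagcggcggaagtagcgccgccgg
The Npc2 window held 3 GC boxes and 2 CCAAT boxes, and the Stard3 window 5 GC boxes and 1 CCAAT box. Windows were found for 6 of the 8 genes, that is for all but Soat2 and Npc1. CCAAT occurred in 6 of 6 of them and in 37.4% of the 32851 windows in the table, and GGGCGG in 5 of 6 and in 35.7%. The 8 letters TCACGTGA, the core of the CLEAR element of lysosomal genes, which contain CACGTG, were in 0 of 6 and 0.974%. TATAAA was in 1 of 6, that of Lipa, and 13.6%. A match here is a description of letters, and none was tested against the changes in level.

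Npc1, the membrane partner of Npc2, had a lowest, median and highest value of 4778, 5203 and 5699 normalized counts in Cyp7a1-labelled livers, against 4003, 4730 and 5444 in controls. Each of the 8 Cyp7a1-labelled livers was above the control mean, but 4 controls reached into their range. Its difference on the log2 scale was 0.15 ± 0.07 (SE), with a 95% interval of 0.0056 to 0.30, and did not pass (limma adjusted p = 0.224). Npc1 lies on chromosome 18, and 511 bases of its exons, 4.52% of their length, overlap Rmc1 on the other strand. The strand setting of the counting is not given, so reads of that stretch could belong to either gene. The ratio of Npc1 to Npc2 per kilobase spanned 1.35 to 1.65 in Cyp7a1-labelled livers and 1.17 to 2.11 in controls, so the Cyp7a1-labelled range lay inside the control range.

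The acid lipase gene Lipa had values of 5555, 7140 and 7920 normalized counts (lowest, median, highest) in Cyp7a1-labelled livers, against 5844, 7204 and 7903 in controls. The ranges nearly coincided. Its log2 fold change of -0.019 ± 0.085 (SE) had a 95% interval of -0.20 to 0.16, equal to a change between -12.8% and 11.6% (limma adjusted p = 0.932). Its sign turned positive without Cyp7a1 17, Cyp7a1 36, Control 7, Control 12 or Control 13, to at most 0.025.

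Nceh1, the neutral hydrolase, had values of 837, 1109 and 1254 normalized counts in Cyp7a1-labelled livers, against 731, 963 and 1068 in controls. In 5 of 8 Cyp7a1-labelled livers it was above every control, while Cyp7a1 36 held the lowest value of its group. On the log2 scale the difference was 0.19 ± 0.09 (SE), with a 95% interval of 0.0053 to 0.38, and did not pass (limma adjusted p = 0.228). It was 0.12 when Control 20 and Cyp7a1 24 were left out together, a pair taken from earlier results of these data.

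Of the esterifying enzymes, Soat2 (chromosome 15, 102150526 to 102163469) had values of 642, 760 and 908 normalized counts in Cyp7a1-labelled livers, against 678, 845 and 943 in controls. The groups overlapped over most of their range, with 3 of 8 Cyp7a1-labelled livers above the control mean. Their difference was -0.10 ± 0.09 on the log2 scale (SE), and its 95% interval reached from -17.8% to 5.39% (limma adjusted p = 0.545).

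Soat1 (chromosome 1, 156424525 to 156474331) had 100.5, 135 and 245 normalized counts in Cyp7a1-labelled livers, against 113, 129 and 183 in controls. It rested on 83 to 294 reads per library, the fewest of the 8 genes. Cyp7a1 24 was highest, with 245 normalized counts, and the next Cyp7a1-labelled liver, Cyp7a1 36, had 169. A log2 fold change of 0.033 ± 0.16 (SE) had a 95% interval of -0.30 to 0.37 (limma adjusted p = 0.939), and it was -0.083 without Cyp7a1 24. The Kupffer cell and macrophage markers were also highest in Cyp7a1 24, where the summed level of 17 markers reached 32474 normalized counts. The summed levels of 6 cholangiocyte markers, at 3952, and of 3 lymphocyte and neutrophil markers, at 1259, were highest in that liver as well. The cholangiocyte sum was mostly Spp1, with a mean of 1956 in Cyp7a1-labelled livers, where the next marker, Sox9, had 181. By the mean centred log2 level of these 6 markers, Control 7 was highest, at 0.56, and Cyp7a1 24 had 0.52. The macrophage sums spanned 9855 to 32474 in Cyp7a1-labelled livers and 11618 to 20897 in controls, 0 of the 17 markers passed the test, and none of the 17 was listed at 0. Beyond a fit with their score as a covariate and the correlations with that score given below, the part of macrophages in the Soat1 values was not tested. That fit gave a log2 fold change of -0.00042 for Soat1, 0.29 for Npc2 and -0.23 for Stard3, the last 2 still passing. The SE for Soat1 was 0.097 in that fit, against 0.16 without the covariate. The score had a median of -0.11 in Cyp7a1-labelled livers and -0.11 in controls, so the covariate could change these differences little. The fit therefore cannot decide the part of macrophages in them.

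Osbp encodes a sterol carrier that exchanges cholesterol for a phosphoinositide at contact sites with the Golgi. Its values were 1363, 1506 and 1615 normalized counts in Cyp7a1-labelled livers, against 1221, 1392 and 1694 in controls. Control 20 held the highest value of all 16 livers, and 7 of 8 Cyp7a1-labelled livers were above the control mean. Its log2 fold change of 0.12 ± 0.06 (SE) did not pass (limma adjusted p = 0.307).

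**Figure D3:**
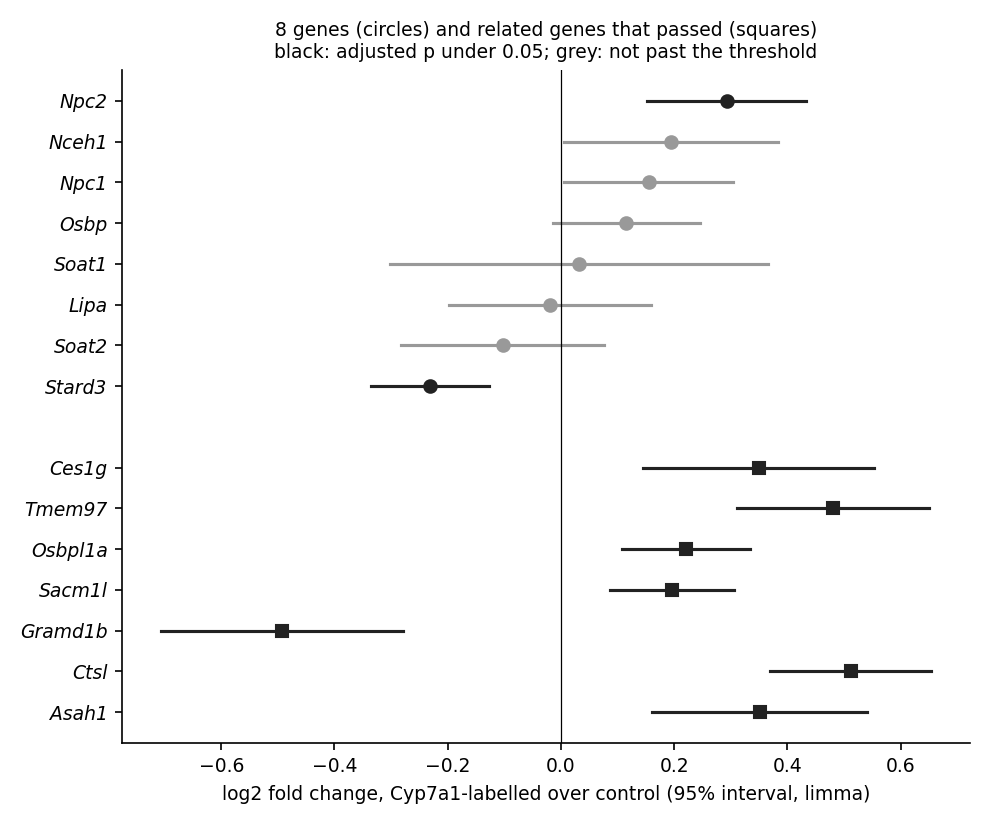
log2 fold change of Cyp7a1-labelled over control livers (horizontal axis) with 95% intervals for the 8 genes (circles) and for the genes of 3 related lists that passed (squares). Npc2 at 0.29 and Stard3 at -0.23 are the 2 circles past the threshold, and the squares run from Gramd1b at -0.49 to Ctsl at 0.51.

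Per kilobase of exon, the scale on which levels of different genes can be set side by side, Lipa was the highest of the 8 and Soat1 the lowest in both groups. Lipa averaged 1023 ± 128 normalized counts per kilobase in Cyp7a1-labelled livers and 1036 ± 119 in controls (SD, n = 8 each), while Soat1 averaged 14.9 ± 4.87 in Cyp7a1-labelled livers and 14.1 ± 2.42 in controls. The order from the top was Lipa, Npc1, Soat2, Osbp, Npc2, Nceh1, Stard3 and Soat1 in each group. It was the same with medians and with any 1 library left out. Soat2, Osbp and Npc2, at 350 ± 48.5, 333 ± 18.5 and 312 ± 22.8 per kilobase in Cyp7a1-labelled livers, had overlapping ranges from one to the next, and these ranges do not order them. In controls the overlap of ranges extended to Npc1, at 414 ± 52.5, next to Soat2, at 375 ± 40.2. Within single livers, Soat2 was above Osbp in 5 of 8 Cyp7a1-labelled livers and 7 of 8 controls. Osbp was above Npc2 in 6 of 8 and 8 of 8, and Npc1 above Soat2 in 8 of 8 and 5 of 8. Lengths are unions of all GENCODE exons, so genes with long rarely used exons are understated.

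Among the acyltransferases, Soat2 was thus far above Soat1. The size of that gap depends on the exon unions, of 2213 bases for Soat2 and 9791 for Soat1. Before division by length, the medians in Cyp7a1-labelled livers were 760 and 135 normalized counts. The ratio of Soat2 to Soat1 per kilobase had a lowest, median and highest value of 15.6, 26.0 and 39.6 in Cyp7a1-labelled livers, against 21.5, 28.7 and 32.7 in controls, and the groups overlapped. Among the hydrolases, the ratio of Lipa to Nceh1 was 4.51, 4.91 and 5.54 in Cyp7a1-labelled livers, against 5.40, 5.73 and 6.19 in controls. That ratio was chosen with the fold changes known and carries no test, and the groups overlapped narrowly.

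**Figure D4:**
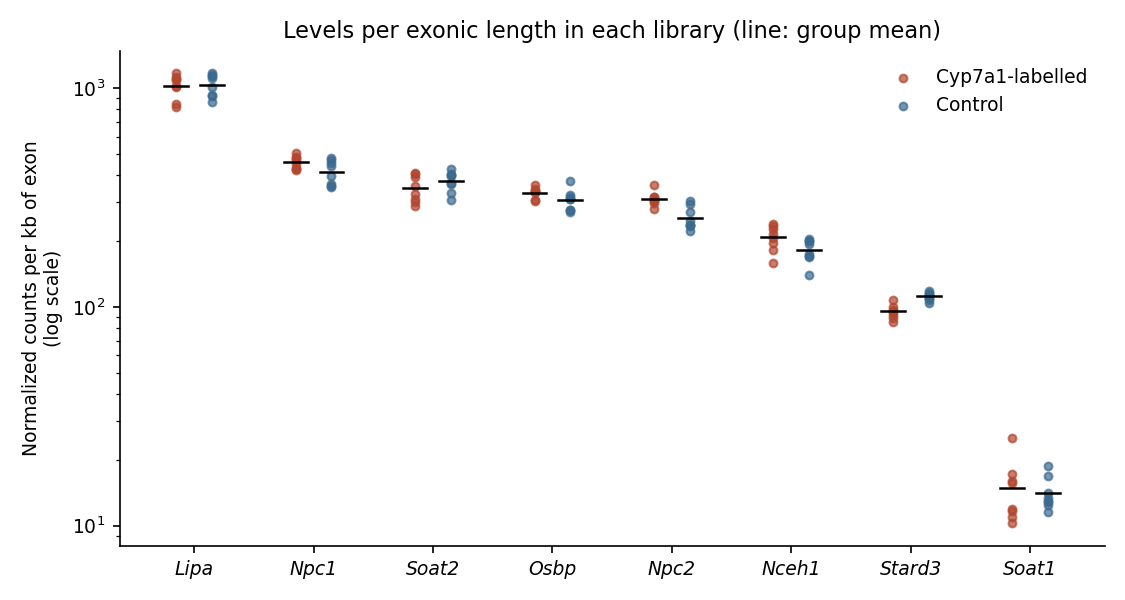
Normalized counts per kilobase of exon (vertical axis, log scale) of the 8 genes in each library, Cyp7a1-labelled livers left of controls, with a line at each group mean. Lipa lies near 1023 in Cyp7a1-labelled livers and 1036 in controls, Soat1 near 14.9 in Cyp7a1-labelled livers and 14.1 in controls, and the ranges of Soat2, Osbp and Npc2 overlap.

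The 8 genes did not vary between livers as one block. With the group means removed, Pearson's r over the 16 libraries had a median of 0.22 over the 28 pairs, from -0.27 to 0.91, as a description in which all points share a library's depth and cell makeup. The closest pair was Lipa with Nceh1, at 0.91 over all livers, 0.88 in Cyp7a1-labelled livers and 0.95 in controls. Npc2 followed this pair, with 0.63 to Nceh1 and 0.55 to Lipa. Its partner Npc1 did not, with -0.27 to Nceh1, -0.23 to Lipa and -0.21 to Npc2, and these values differed in sign between the groups, at 0.35, 0.51 and 0.35 in Cyp7a1-labelled livers and -0.63, -0.69 and -0.39 in controls, a difference that was not tested. Soat1 and Soat2 had an r of 0.12, and Npc2 and Stard3, which differed in opposite directions between the groups, one of 0.40 within them.

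**Figure D5:**
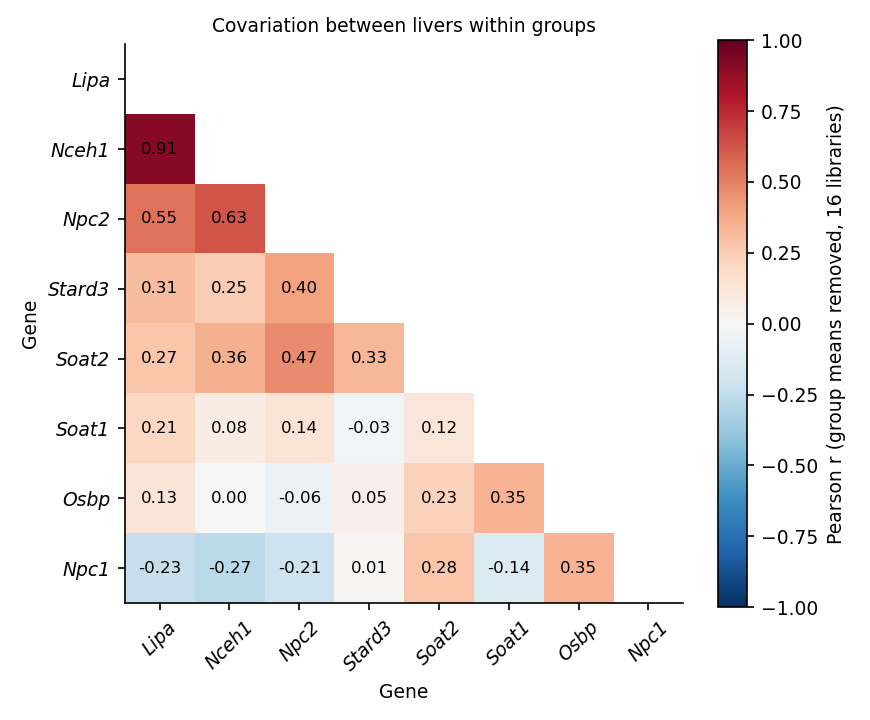
Pearson's r between each pair of the 8 genes (rows and columns) over 16 libraries after removing the group means, with the colour scale from -1 to 1. Lipa and Nceh1 stand out at 0.91, and Npc1 has values below 0 with Lipa, Nceh1 and Npc2.

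The promoters of this closest pair are shown on the same build and with the same marks, Lipa from chr19:34527425-34527724 on the minus strand and Nceh1 from chr3:27182754-27183053 on the plus strand.
Lipa: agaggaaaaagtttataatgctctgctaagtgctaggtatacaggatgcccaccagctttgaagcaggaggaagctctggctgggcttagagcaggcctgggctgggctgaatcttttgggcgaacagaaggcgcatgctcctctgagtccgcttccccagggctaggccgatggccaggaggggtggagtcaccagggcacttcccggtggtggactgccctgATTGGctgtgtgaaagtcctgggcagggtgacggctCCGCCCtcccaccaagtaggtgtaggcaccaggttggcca
Nceh1: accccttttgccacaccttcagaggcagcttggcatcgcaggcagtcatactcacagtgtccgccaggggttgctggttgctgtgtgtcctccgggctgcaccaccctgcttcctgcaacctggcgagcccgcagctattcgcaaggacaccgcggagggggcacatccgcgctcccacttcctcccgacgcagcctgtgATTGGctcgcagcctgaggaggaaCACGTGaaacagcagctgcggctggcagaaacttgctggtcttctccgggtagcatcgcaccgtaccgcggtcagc
The Lipa window held 1 CCAAT box and 1 GC box. The Nceh1 window held 1 CCAAT box and 1 CACGTG, which 7.15% of all windows contain, and 0 GC boxes.

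Across the whole table, the genes most like each of the 8 were named by the same r over 16 libraries, with no statement on function. Nceh1 was closest to Gas6 (0.93), Col12a1 (0.91) and Anxa4 (0.91), and Lipa to Cables1 (0.92), Chrnb1 (0.91) and Nceh1 (0.91). Npc2 was closest to Tmem176b (0.90), Tmem176a (0.90) and Hexa (0.89), the last a lysosomal hexosaminidase subunit. Soat1 was closest to Epb41l3 (0.92), Rasgrp1 (0.92) and Cd86 (0.90), the last a costimulatory molecule of antigen-presenting cells. Osbp was closest to Raph1 (0.92), the endoplasmic reticulum chaperone gene Hspa5 (0.91) and Cad (0.91). Npc1 was closest to Cds2 (0.88), Fam69a (0.88) and Dlg1 (0.87), Soat2 to Trim3 (0.87), Fam20a (0.84) and P2rx4 (0.83), and Stard3 to Gtpbp2 (0.85), Vps51 (0.80) and Mgat1 (0.79). Of these genes, Raph1 alone passed the test between the groups, with a log2 fold change of -0.30 ± 0.08 (SE, limma adjusted p = 0.0390).

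Each gene was also set against 2 scores within each group, a score being the mean centred log2 level of a list. One list holds 14 targets of the sterol-sensing factor SREBP2, and its score spanned -0.67 to 1.54 in Cyp7a1-labelled livers and -1.44 to 0.02 in controls. Of these targets, 10 of 14 were higher in Cyp7a1-labelled livers and 0 lower, against 3.07% and 3.05% of all genes. The other holds the macrophage markers. Of 32 relations, 6 passed after Benjamini-Hochberg adjustment by Pearson's r and 3 by Spearman's rho, with exact permutation tests over pairings and n = 8 in each.

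Soat1 followed the SREBP2 score in controls, with r = 0.88 and rho = 0.98 (exact permutation p = 0.000149 and 0.000397, adjusted 0.00476 and 0.0127), and r = 0.82 without the 2 livers farthest from the median score. In Cyp7a1-labelled livers Soat1 had r = -0.39 and rho = -0.60 (exact permutation p = 0.356 and 0.132, adjusted 0.631 and 0.326), and the difference between the groups was not tested. In Cyp7a1-labelled livers it followed the macrophage score, with r = 0.92 and rho = 0.90 (exact permutation p = 0.00298 and 0.00456, adjusted 0.0302 and 0.0487), and r = 0.69 without Cyp7a1 24 and Cyp7a1 36. In controls the values for that score were r = 0.70 and rho = 0.26 (exact permutation p = 0.0898 and 0.536, adjusted 0.239 and 0.802), with r = -0.71 without Control 13 and Control 7, and the difference between the groups was not tested. Npc2 followed the macrophage score in controls, with r = 0.92 and rho = 0.93 (exact permutation p = 0.000893 and 0.00223, adjusted 0.0143 and 0.0357), and r = 0.73 without Control 13 and Control 7. In Cyp7a1-labelled livers its r with that score was -0.09 and its rho -0.14 (exact permutation p = 0.871 and 0.752, adjusted 0.899 and 0.802).

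Soat2, Nceh1 and Npc2 followed the SREBP2 score in Cyp7a1-labelled livers by r, at 0.81, 0.89 and 0.90 (exact permutation p = 0.00506, 0.00536 and 0.00565, each 0.0302 adjusted). By rho, at 0.79, 0.86 and 0.74, they did not pass (exact permutation p = 0.0279, 0.0107 and 0.0458, adjusted 0.128, 0.0857 and 0.133). Without Cyp7a1 36 and Cyp7a1 2, r was 0.76 for Soat2, 0.65 for Nceh1 and 0.48 for Npc2, so that of Npc2 rests largely on these 2 livers. Stard3 passed with neither score in either group.

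Related genes came from 3 lists of 52 genes, of which 49 were in the table, and 6 of these were higher and 1 lower in Cyp7a1-labelled livers, against 3.07% and 3.05% of all genes. Their median log2 fold change was 0.01. Among sterol transfer and contact site proteins, 3 of 21 were higher and 1 was lower. Tmem97, whose product binds NPC1 in human cells, had 1000, 1178 and 1497 normalized counts (lowest, median, highest) in Cyp7a1-labelled livers, against 723, 862 and 1008 in controls. It rose by 0.48 ± 0.08 on the log2 scale (SE, limma adjusted p = 0.00214), and 7 of 8 Cyp7a1-labelled livers lay above every control. Gramd1b, which encodes the Aster-B carrier of cholesterol to the endoplasmic reticulum and is a known target of the oxysterol receptor LXR in mice, had 97.8, 133 and 149 normalized counts in Cyp7a1-labelled livers, against 151, 183 and 252 in controls. The groups did not overlap, and its log2 fold change was -0.49 ± 0.10 (SE, limma adjusted p = 0.00889). Of 9 other listed LXR targets 3 were lower and 0 higher, against 3.05% and 3.07% of all genes.

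Osbpl1a, a relative of Osbp that senses cholesterol on late endosomes, rose by 0.22 ± 0.05 on the log2 scale (SE, limma adjusted p = 0.0220). Sacm1l, the phosphatase that consumes the phosphoinositide exchanged by OSBP, rose by 0.20 ± 0.05 (SE, limma adjusted p = 0.0325), but lost its call without any 1 of 7 libraries, namely Cyp7a1 5, 19, 24 and 28 and Control 7, 12 and 38 (up to 0.0640). The endoplasmic reticulum anchors Vapa and Vapb, to which STARD3 and OSBP bind, had log2 fold changes of 0.03 and -0.06, and Stard3nl, the relative of Stard3 that lacks its sterol-binding domain, of 0.11, none of them passing.

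Among lysosome genes, 2 of 18 were higher and 0 lower, against 3.07% and 3.05% of all genes. The protease gene Ctsl had 13911, 15630 and 16972 normalized counts in Cyp7a1-labelled livers, against 9424, 10531 and 12708 in controls. The groups did not overlap, and it rose by 0.51 ± 0.07 on the log2 scale (SE, limma adjusted p = 0.000277). The acid ceramidase gene Asah1 rose by 0.35 ± 0.09 (SE, limma adjusted p = 0.0292), but lost its call without any 1 of 6 libraries, namely Cyp7a1 2 and 28 and Control 12, 16, 25 and 38 (up to 0.0613). The membrane proteins Lamp1 and Lamp2 had log2 fold changes of -0.11 and 0.13 and Tfeb, the factor that drives lysosome genes, of -0.11, none of them passing.

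Among other enzymes of ester formation and hydrolysis, 1 of 10 was higher and 0 lower, against 3.07% and 3.05% of all genes. The carboxylesterase gene Ces1g rose by 0.35 ± 0.10 on the log2 scale (SE, limma adjusted p = 0.0407), but its call ended without any 1 of 10 libraries, namely Cyp7a1 2, 5, 17, 19, 26 and 28 and Control 12, 13, 25 and 35 (up to 0.0753), and reads may be split with its close Ces1 relatives. Lcat, which esterifies cholesterol in plasma, and Aadac, the nearest relative of Nceh1 in the list, had log2 fold changes of 0.0012 and -0.07. The hepatic lipase Lipc and the hormone-sensitive lipase Lipe, named after their values were seen, had log2 fold changes of -0.39 and -0.21 and did not pass (limma adjusted p = 0.0611 and 0.142). Lipc did pass, as the 1 gene of the list called lower, with quantile normalization, equal totals, edgeR, DESeq2 and the macrophage covariate, and without Control 7 or Control 13, with adjusted p values of 0.0102 to 0.0494 in these 7 settings.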

How the data were processed

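Per the labels' protocols, mRNA libraries were made from 800 ng of liver RNA. The build mm10 and the tools STAR 2.7.11a, Trim Galore 0.6.10, DESeq2, R 3.6.3 and featureCounts are named in the submitters' processing notes, without their settings. The deposited values are a signal, gene counts that the authors divided by a factor per library (normalized counts). One row held text and was left out, and 19 symbols turned into dates were restored, neither touching the 8 genes. In each library 99.945% to 99.992% of values were whole multiples of 1 read (tolerance 0.05 reads), and the recovered reads served the alternatives edgeR 4.0.16 and DESeq2 1.42.0.

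limma 3.58.1 (trend, two-sided) compared 8 with 8 libraries on log2(value + 1), which understates changes of low genes. A minimum mean of 10 removed 0 genes. Exact permutation tests used 12870 assignments. Exon lengths and coordinates are from GENCODE M21 (mm10, 1-based). The limma, edgeR and DESeq2 fits were first tried on simulated data.

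The 8 genes and the lists were chosen with earlier results of these data known. Named are the 8 genes, Cyp7a1, up to 6 passing members per related list and the 3 genes most like each, and a few further list members chosen after their values were seen. Alternatives were another pseudocount, filters, scalings, array weights, edgeR, DESeq2, leaving out libraries and a macrophage covariate, the pair left out and the covariate being added after the data were seen.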

Additional observations from a re-analysis of the deposited data

Results flagged for a closer look

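Gramd1b in Cyp7a1 28, with 97.8 normalized counts, lay far below the other 7 Cyp7a1-labelled livers, at 127 to 149, by Dixon's 95% criterion. Such a library turned up in 1 of 44 groups of 8 looked at, and chance gives about 1 in 20.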

How the results depend on the processing

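Stard3 kept its call under every alternative run, and Npc2 under all but equal totals, where its log2 fold change was 0.29 (adjusted p = 0.0788) and 0 of the 8 genes were called higher. With any 1 library left out, the log2 fold change spanned 0.26 to 0.33 for Npc2, -0.26 to -0.21 for Stard3, -0.056 to 0.025 for Lipa and -0.083 to 0.10 for Soat1. The sign of Soat1 also turned without Control 20 and Cyp7a1 24 together (-0.080) and with the macrophage score as a covariate (-0.00042). Over all genes, the counts of higher and lower calls spanned 230 to 399 and 245 to 414 with 1 library left out, lowest without Cyp7a1 28 (230 and 245), and 256 lower without Control 16. Asah1 and Sacm1l lost their calls with equal totals (adjusted p = 0.103 and 0.0797), and Asah1 also without Control 20 and Cyp7a1 24 (0.0698). The cause was not tested. No paired analysis was possible because the groups share no replicate number. Soat1 had the fewest reads of the 8 genes, at most 294 per library.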
